A study of Mus musculus with 70 samples.

Results

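The strong cortex-only TRβ sites are TRβ-HAB peaks of the mouse cerebral cortex that held at least 18 reads of the HAB;BirA libraries. They overlapped no TRβ-HAB peak called in the pituitary of untreated mice. They numbered 1042 of the 5164 cortex peaks, and both peak lists together hold 13215 peaks. TRβ, the thyroid hormone receptor encoded by *Thrb*, had been mapped by chromatin affinity purification and sequencing (ChAP-seq). In HAB;BirA mice (ThrbHAB/HAB; Rosa26BirA/BirA) the tagged receptor is biotinylated by the ligase BirA and captured on streptavidin, and control BirA mice (Rosa26BirA/BirA) carry the ligase without the tagged receptor. The titles and file names of the untreated control libraries of both tissues say BirA, but their genotype labels give the same genotype as HAB;BirA. They were taken as BirA controls by title, and which entry is wrong is not known here, which bears on every control count and fold. The mice were untreated adult males with a C57BL/6J strain label, although the methods describe HAB;BirA mice of mixed background. A cortex library came from 2 mice and a pituitary library from a pool of 12, with 3 HAB;BirA and 3 BirA libraries for each tissue. The authors merged the libraries of a genotype before peaks were called, so each peak carries 1 HAB;BirA count and 1 control count and no replicate value. Cortex is a mixture of neurons, glia and vessels, and in such bulk tissue a site bound in few cells and a site bound weakly in many cannot be told apart. Cortex RNA was not analysed here, so the tissue label of these libraries was not checked against marker transcripts. The merged cortex read totals listed in the supplement are not the sums of the single libraries of each genotype. They equal the sums obtained when library 1 of HAB;BirA and library 1 of BirA are exchanged, and the untreated pituitary totals show no such difference. Which libraries entered the merged cortex counts is therefore not known here, and this bears on every HAB;BirA and control count given below.

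TRβ usually binds DNA as a heterodimer with a retinoid X receptor, at paired copies of a hexamer close to AGGTCA. The direct repeat with a 4-base spacer (DR4) is its best known arrangement. Without triiodothyronine (T3) the receptor recruits corepressor complexes and with T3 it recruits coactivators. In the brain thyroid hormone is known for its role in neuronal migration, synapse formation and myelination. Gene promoters of vertebrates often lie in CpG islands, stretches rich in G and C in which CpG dinucleotides are kept.

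The sequences of 2 kinds of site are shown, and a site can belong to both. The first kind is the small set whose DR4 matched at 11 of the 12 half-site bases, the closest match among the members. Capitals mark the hexamers, the 4 lower-case letters between them are the spacer, and each sequence is written 5′ to 3′ on the strand that reads as AGGTCA. Positions are in mm9: the window at *Mllt1* lies at chr17:57075359-57075418 (minus strand), that near *Irgc1* at chr7:25214478-25214537 (plus), the repeat at *Rab36* at chr10:74500227-74500242 (plus), that near *SNORA17* at chr9:112357332-112357391 (plus), that near *Olfml2b* at chr1:172625011-172625070 (minus) and that at *Gmpr* at chr13:45602629-45602688 (plus). The windows at *Mllt1*, *Rab36* and *Gmpr* belong to sites at transcription starts, and the other 3 are intergenic.
Mllt1: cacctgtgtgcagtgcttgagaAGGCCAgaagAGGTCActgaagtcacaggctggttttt
Irgc1: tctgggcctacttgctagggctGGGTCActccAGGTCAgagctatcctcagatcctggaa
Rab36: AGGTCAgaagAGGACA
SNORA17: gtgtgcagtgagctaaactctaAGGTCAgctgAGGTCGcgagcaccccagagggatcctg
Olfml2b: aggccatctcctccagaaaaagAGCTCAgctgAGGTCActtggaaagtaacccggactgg
Gmpr: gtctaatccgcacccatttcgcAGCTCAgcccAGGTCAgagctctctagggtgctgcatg

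Distal members with few control reads held DR4 matches at 10 of 12 bases, and 4 of these are shown because of their large ratio of HAB;BirA to control reads. They were picked after their values were seen. The *Gli2* window lies in an intron at chr1:120805914-120805973 (minus), the *Mir153* window in an intron of *Ptprn2* at chr12:118317650-118317709 (plus), the *Gm5083* window between genes at chr13:44317984-44318043 (minus) and the *Dusp13* window between genes at chr14:22552470-22552529 (minus).
Gli2: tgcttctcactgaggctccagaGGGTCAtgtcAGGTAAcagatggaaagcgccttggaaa
Mir153: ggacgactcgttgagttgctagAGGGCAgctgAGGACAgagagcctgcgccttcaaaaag
Gm5083: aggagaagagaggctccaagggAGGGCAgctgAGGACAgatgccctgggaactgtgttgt
Dusp13: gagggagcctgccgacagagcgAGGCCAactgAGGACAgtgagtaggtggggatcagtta

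The second and larger kind is a CpG island at a transcription start. Stretches of 150 bases outside annotated exons are shown from *Mex3b* (chr7:90015451-90015600), *Man2a2* (chr7:87516271-87516420) and *Slc1a2* (chr2:102498301-102498450), all on the plus strand of mm9. Capitals mark GGGCGG, the core of the GC box bound by Sp family factors, or its reverse complement. The *Mex3b* stretch held 3 such matches, some of which overlap, and 21 CpG dinucleotides at 78.7% G and C. The *Man2a2* stretch held 2 matches and 21 CpG dinucleotides at 79.3% G and C. The *Slc1a2* stretch had no match and 10 CpG dinucleotides at 53.3% G and C, the least GC-rich of the 3.
Mex3b: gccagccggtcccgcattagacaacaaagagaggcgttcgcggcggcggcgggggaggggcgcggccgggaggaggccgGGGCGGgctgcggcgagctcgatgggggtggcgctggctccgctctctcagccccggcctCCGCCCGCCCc
Man2a2: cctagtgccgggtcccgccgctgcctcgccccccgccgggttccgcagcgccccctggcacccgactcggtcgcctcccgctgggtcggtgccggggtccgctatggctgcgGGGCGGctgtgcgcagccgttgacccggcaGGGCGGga
Slc1a2: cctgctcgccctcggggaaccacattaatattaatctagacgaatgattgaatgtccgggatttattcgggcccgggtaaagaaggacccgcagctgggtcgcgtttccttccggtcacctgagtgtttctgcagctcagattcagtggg

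The members were selected on their HAB;BirA reads and on the absence of an overlapping pituitary peak, so these values are given as a description, without a test. HAB;BirA reads ran from 18 to 1587 with a median of 23, and control reads from 0 to 202 with a median of 4. The fold given by the authors had a median of 5.40, and the median site was 600 bp long. In the 992 members with control reads that fold was 0.852 times the ratio of reads. In the 50 members with no control read it came to 3.41 per HAB;BirA read, as if 0.25 control reads had been counted, so the largest folds belong to sites with 0 control reads in the order of their HAB;BirA reads. At the read threshold, 99 members held exactly 18 reads, with a median of 2 control reads, a fold of 7.67 and a width of 500 bp. Just below it, 143 cortex-only sites held 17 reads, with medians of 2 control reads, 7.24 fold and 500 bp. A transcription start lay within 32 of the former and 54 of the latter sites.

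**Figure D1:**
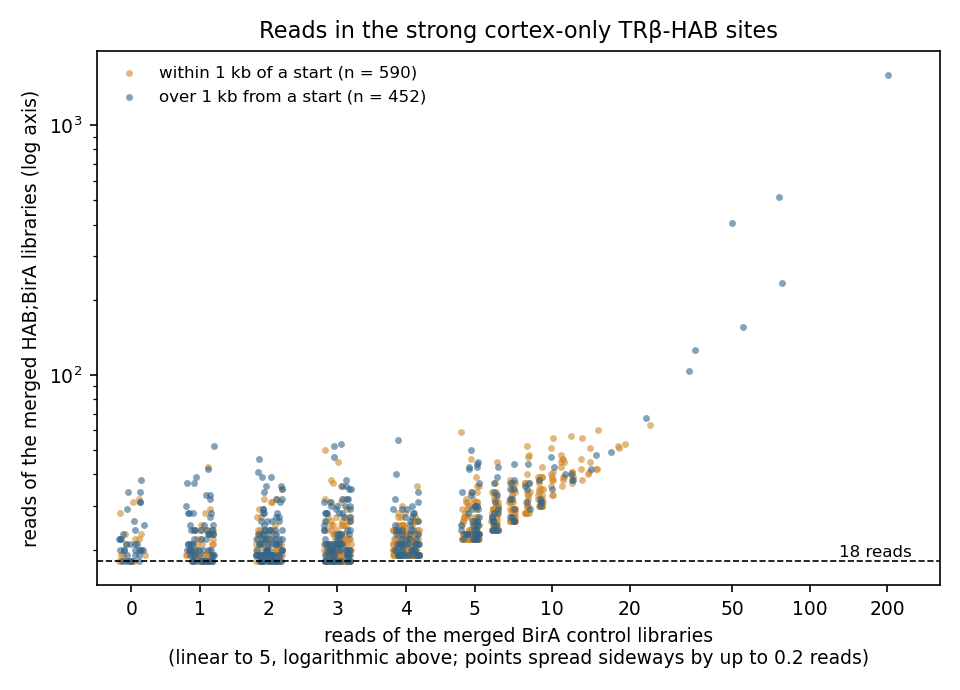
HAB;BirA reads (vertical log axis) against BirA control reads (horizontal axis, linear to 5 and logarithmic above) of the 1042 strong cortex-only sites, 1 point per site, coloured by distance to an annotated start. Most points lie between 18 and 60 HAB;BirA reads, and the sites with more than 60 reads, most of them distal, also hold the most control reads.

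Being free of overlap did not always mean being far from a pituitary site. The median gap to the nearest pituitary peak was 55975 bp, but 36 members lay within 1 kb of one. At 4 of these, the starts of *Atp2b1* (a plasma membrane calcium pump), *Pkm2* (a pyruvate kinase) and *Nubp2* and an intron of *Tet3* (a methylcytosine dioxygenase), the 2 peaks abutted with no shared base. The 2 peak lists also differ in depth, and 18 reads do not stand for the same relative signal in both tissues.

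Most members lay at promoters. A site was placed at a start when it came within 1 kb of an annotated transcription start, and 590 members did so (56.6%, 95% Wilson interval 53.6 to 59.6). Of all members, 466 covered a start (44.7%). Introns held 192 members (18.4%), intergenic sequence 233 (22.4%), coding exons 23 (2.21%) and untranslated exons 4 (0.38%). Only 31.2% of the 3245 weak cortex-only sites, those under 18 reads, lay at starts, and 19.8% of the 3432 pituitary-only sites of at least 18 reads did. The share at starts was higher in the strong cortex-only sites than in both (Fisher's exact test, two-sided, adjusted p = 1.67e-47 and 1.19e-108). Against the 877 cortex sites that overlapped a pituitary site, of which 62.9% lay at starts, the difference was -6.32 percentage points (adjusted p = 0.00639). These p-values were adjusted over the 15 comparisons of this family, and they treat sites of merged libraries as independent. The shared sites had no read threshold, and 590 of the 877 held at least 18 HAB;BirA reads. This and the later comparisons with shared sites thus differ in reads as well as in sharing. The part of each was not tested.

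CpG island sequence followed the same order. It was counted where a site had over 50% G and C and an observed to expected CpG ratio above 0.6, and 538 members met this (51.6%, 48.6 to 54.7). The share was 23.4% in weak cortex-only sites (adjusted p = 1.42e-62), 12.4% in strong pituitary-only sites (adjusted p = 1.38e-141) and 58.4% in shared cortex sites (adjusted p = 0.00440). In sequence of the same length 10 kb away from the members the share was 1.54%. Among members at starts 84.7% were CpG island sequence, and among distal members, over 1 kb from a start, 8.41%. Members at starts were also wider and had more control reads, with medians of 700 bp, 24 HAB;BirA and 4 control reads and 4.77 fold. The 452 distal members had medians of 550 bp, 23 and 3 reads and 7.13 fold. Widths differed between the sets too, with medians of 400 bp in weak cortex-only, 500 bp in shared and 350 bp in strong pituitary-only sites, and their part in these shares was not tested.

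**Figure D2:**
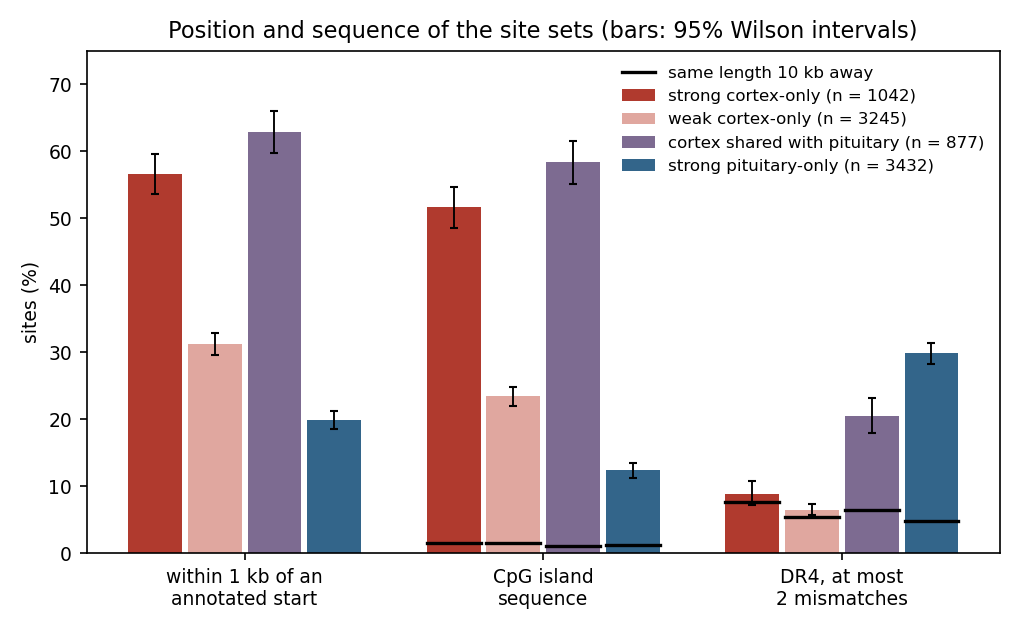
Share of sites (vertical axis, percent) within 1 kb of a start, with CpG island sequence and with a DR4 in 4 sets of sites, with 95% Wilson intervals and, as black lines, the share in sequence of the same length 10 kb away. The strong cortex-only sites stand at 56.6%, 51.6% and 8.83%, and their DR4 share lies close to the 7.68% found 10 kb away.

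Short motifs of promoter factors were counted in the members and in sequence of the same length 10 kb away. They were chosen after the files were opened, are given without a test, and were sought on both strands. GGGCGG, the Sp motif, occurred in 59.6% of members against 9.60% of the sequence 10 kb away, and in 84.7% of members at starts. CCGGAAG, an ETS motif, occurred in 17.0% against 2.50%. CACGTG, the E-box bound by CLOCK, MYC and related factors, was found in 15.4% against 8.54%. CCAAT, the NFY motif, went the other way, with 48.1% against 55.6% in all members and 52.4% against 57.3% in those at starts. TGANTCA, the AP-1 motif, occurred in 14.0% of all members against 18.2% and in 21.9% of the distal ones against 14.8%. CAGATG, an E-box of neuronal bHLH factors, occurred in 33.97% of all members against 41.9% and in 44.9% of the distal ones against 41.6%. GCATGCGC (NRF1), TGACGTCA (CREB), GTTGCCAT (RFX) and AAAGGTCA (Nur factors) occurred in 5.28%, 2.88%, 2.88% and 2.21% of members, against 1.44%, 0.48%, 1.06% and 3.45%. The single half-site AGGTCA was less frequent in members than in the sequence 10 kb away, at 24.1% against 35.7%. A match is a description of these letters and not a binding site, and G and C content differs between the sites and the sequence beside them.

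A DR4 was uncommon. With at most 2 mismatches over the 12 half-site bases and both strands searched, 92 members had one (8.83%, 7.25 to 10.7), against 7.68% of sequence 10 kb away. The share was 29.8% in strong pituitary-only sites (adjusted p = 6.82e-49) and 20.4% in shared cortex sites (adjusted p = 8.87e-13), both higher than in the members. In weak cortex-only sites it was 6.44%, lower than in the members by 2.39 percentage points (adjusted p = 0.0106). That last difference was 0.20 points in the central 300 bp of each site (4.70% against 4.50%, adjusted p = 0.855) and -0.35 points when only 1 mismatch was allowed (adjusted p = 0.386). Without the 59 members that held 10 or more control reads it was 1.80 points (adjusted p = 0.0558). In the central 300 bp 15.2% of shared and 27.3% of strong pituitary-only sites had a DR4.

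The DR4 share was taken apart by position, and the difference between distal members and members at starts was not tested. At starts the share was 6.61%, against 7.63% of the sequence 10 kb away, and it was 16.8% in shared and 18.8% in strong pituitary-only sites at starts (adjusted p = 9.22e-08 and 1.36e-10). Over 1 kb from a start the share was 11.7%, against 7.74% of the sequence 10 kb away, and it was 26.5% in shared and 32.5% in strong pituitary-only distal sites (adjusted p = 3.30e-07 and 1.87e-21). Weak cortex-only sites had 3.75% at starts (adjusted p = 0.0110) and 7.66% distally (adjusted p = 0.00762). They were narrower, with medians of 400 bp in both places against 700 bp and 550 bp in the members. In the central 300 bp the share at starts was 2.37% in members and 2.37% in weak cortex-only sites. Distally it was 7.74% and 5.47%, and these central shares were not tested. Among the 9 spacings from 0 to 8 bases searched in distal members, DR4 had the highest share, followed by DR1 at 8.41%. In members at starts DR1 had the highest share, 6.95%, followed by DR4 at 6.61%. In the strong pituitary-only sites the DR4 share of 29.8% compared with 8.74% for the next spacing, DR0. A match at 11 or 12 of the 12 bases was found in 6 members (0.58%), against 0.77% of the sequence 10 kb away.

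**Figure D3:**
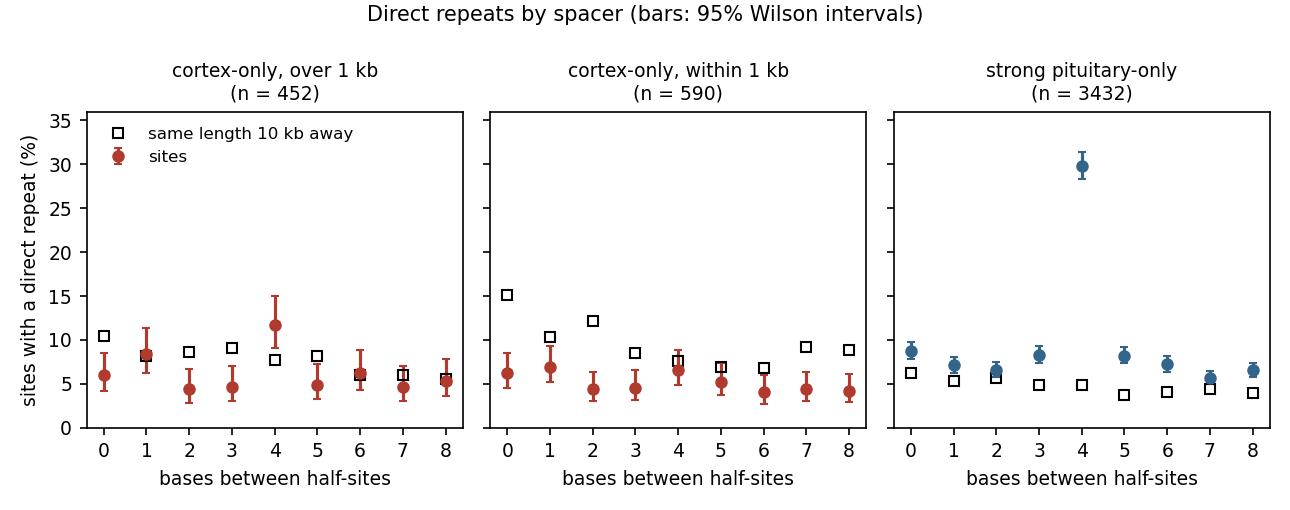
Share of sites (vertical axis, percent) with a direct repeat of AGGTCA by the number of bases between half-sites (horizontal axis), with 95% Wilson intervals, beside sequence of the same length 10 kb away (open squares). DR4 stands out at 29.8% in strong pituitary-only sites and reaches 11.7% in distal and 6.61% in proximal strong cortex-only sites.

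The members varied along the fold of HAB;BirA over control reads. This fold comes from the same reads as the rule, so the classes are a description. In the 441 members under 5-fold, 71.0% lay at starts and 67.1% were CpG island sequence. These shares were 50.9% and 46.0% in the 391 members of 5- to 10-fold, and 40.6% and 32.0% in the 128 of 10- to 20-fold. In the 82 members over 20-fold, each with few or no control reads, 31.7% lay at starts and 25.6% were CpG island sequence. DR4 matches were found in 9.52%, 5.88%, 7.81% and 20.7% of these classes in turn, against 8.16%, 5.63%, 10.9% and 9.76% of sequence 10 kb away. Among distal members the DR4 share was 14.8% under 5-fold, 7.29% at 5- to 10-fold and 9.21% at 10- to 20-fold. The sequence 10 kb away from them had 9.38%, 5.73% and 7.89%. The distal share thus did not rise steadily with the fold, and these differences were not tested. In the 56 distal members over 20-fold, 13 had a DR4 (23.2%, 14.1 to 35.8). The sequence 10 kb away from these had 10.7% (5.00 to 21.5), so the intervals overlap. In the central 300 bp 12 of the 56 had one (21.4%). The *Gli2*, *Mir153*, *Gm5083* and *Dusp13* sequences shown above belong to this class. Classed by HAB;BirA reads alone, the DR4 share went from 6.41% at 18 to 20 reads to 14.5% at 35 or more, and the share 10 kb away went from 5.13% to 13.04%.

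**Figure D4:**
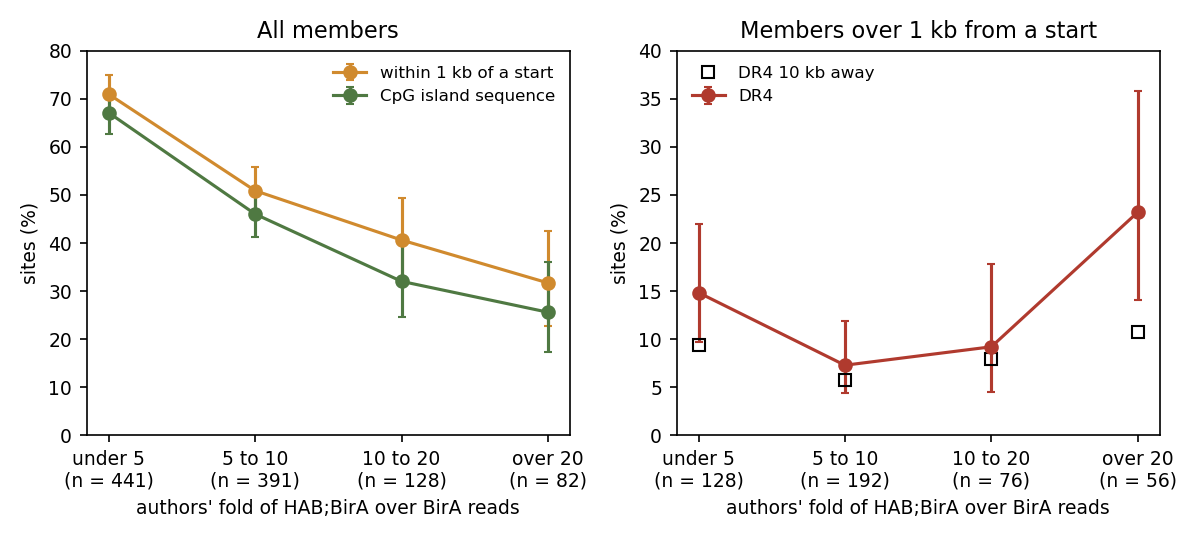
Shares of strong cortex-only sites (vertical axes, percent, with 95% Wilson intervals) by the authors' fold (horizontal axes). The shares at starts and with CpG island sequence fall from 71.0% and 67.1% under 5-fold to 31.7% and 25.6% over 20-fold. A DR4 is found in 14.8% of distal members under 5-fold and in 23.2% of those over 20-fold. Sequence 10 kb away from the latter has 10.7%, with overlapping intervals.

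The members with the most reads were not the cleanest. The 3 highest lay between 2649 and 9349 bp from the start of *9230019H11Rik* on chromosome 10, with 1587, 514 and 405 HAB;BirA reads over 202, 76 and 50 control reads. A coding exon of *Stk32b* held 234 over 78 reads, a site by the pseudogene *Pisd-ps1* 155 over 55, an intergenic site on chromosome 3 126 over 36, and sites by *Gm3115* and *Gm10340* on chromosome 14 104 over 34 and 67 over 23. The start of *Mbd3*, a subunit of the NuRD chromatin complex, held 60 over 15. These 9 members all had 15 or more control reads and folds between 2.40 and 6.90.

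Some of these regions are near-copies of one another. Cut into stretches of 50 bases, 41 members shared at least 1 stretch with another member and 24 shared at least 10% of their stretches. Of these 24, 12 lay on chromosome 14, 6 on chromosome X, 5 on chromosome 10 and 1 on chromosome 13, and they had medians of 33.5 HAB;BirA and 8 control reads. The *9230019H11Rik* sites shared stretches with sites by *Raet1d* and *H60b*. A DR4 was found in 2 of the 24, at *Gm2237* and *Gm10128*, predicted genes of chromosome 14. Reads of such copies could be placed on either, so these sites are uncertain. Most members stood alone, since joining sites with gaps of up to 50 kb gave 951 groups, of which 876 held 1 member, 73 held 2 or 3, and 2 held 4.

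The members next in HAB;BirA reads included promoters and distal sites of neuronal and glial genes, among others. Those named first are a selection made after their values were seen. The start of *Slc1a2*, the main glutamate transporter of astrocytes, held 59 HAB;BirA over 5 control reads (10.1-fold), and a pituitary site began 1850 bp away. The start of *Mex3b*, an RNA-binding protein, held 57 over 12 reads, that of *Spred1*, an inhibitor of Ras signalling, 56 over 13, and that of *Trim9*, a ubiquitin ligase of neurons, 56 over 10. Among distal sites, 1 intergenic site near *Ttc3* held 55 over 4 reads and an intron of *Ephb2*, an ephrin receptor of synapses, 53 over 3. The site chr10:98951401-98951650 in mm9, nearest to the pseudogene *Gad1-ps*, held 52 over 1 reads (44.3-fold), and an intron of *Pde8b*, a cyclic AMP phosphodiesterase, held 52 over 3 with a DR4 at 10 of 12 bases. These 4 distal sites held no more than 4 control reads each, fewer than any of the 9 above. Other members of similar rank had more. They included the starts of *Gm2237* (53 over 19), *Man2a2* (51 over 18) and *Hspa8* (48 over 11). Distal sites near *1600029I14Rik* (49 over 17) and *Gm10340* (48 over 15) were also among them.

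The 10 largest folds belonged to sites without a control read. They were an intergenic site near *Adarb1*, an RNA editing enzyme (38 HAB;BirA reads), introns of *Gli2*, a transcription factor of hedgehog signalling (34), and *Msra*, a methionine sulfoxide reductase (34), the starts of *Mdga2*, a synaptic adhesion protein (32), and *Mat2a*, an enzyme of S-adenosylmethionine synthesis (31), introns of *Tet3* (31), *Chst11*, a chondroitin sulfotransferase (31), and *Hdac4*, a histone deacetylase (29), the start of *Loxhd1* (28) and an intron of *Spata13* (26). The *Gli2*, *Mdga2* and *Loxhd1* sites had a DR4 at 10 of 12 bases. A count of 0 control reads allows up to 3, counting error only, so these folds depend on the value put in place of 0.

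Sites with the closest DR4 matches spanned the range of reads. *Mllt1*, encoding a reader of acetylated histones, held 46 over 11 reads, the *Irgc1* site 38 over 12, *Rab36* 23 over 5, the *SNORA17* site 22 over 5, the *Olfml2b* site 19 over 2 and *Gmpr*, a GMP reductase, 19 over 0. The sites at *Mllt1* and *Gmpr* were CpG island sequence as well.

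Few members lay in chromatin that responded to T3 in the pituitary. The authors deposited a list of regions whose accessibility (ATAC-seq) differed between hyperthyroid and hypothyroid nuclei of pituitary cells, with an adjusted p but no direction. These mice (Rosa26Sun1-GFP; Thrb2-Cre) carry a nuclear GFP tag switched on by a Cre of the *Thrb* locus, so only nuclei of cells that had expressed this Cre were purified, with 4 libraries per treatment. It overlapped 7 members (0.67%, 0.33 to 1.38), against 0.31% of weak cortex-only, 9.58% of shared and 19.1% of strong pituitary-only sites. Since the members were chosen for lacking a pituitary site, these shares are given without a test. The 7 sites lay at the starts of *Nsg1* (a neuronal endosomal protein), *Ptn* (the growth factor pleiotrophin) and *Hps1*, in introns of *Wdr63* and *Msra*, and between genes near *Fxyd3* and *Gm5083*. The *Gm5083* site held 37 over 1 reads and a DR4 at 10 of 12 bases, and its ATAC region had the lowest adjusted p of the 7 (2.29e-09 by the authors' edgeR analysis). The *Fxyd3* site held 27 over 3 reads and also a DR4 at 10 of 12 bases (adjusted p 6.14e-05 by the same analysis).

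Genes were then taken from lists for brain, pituitary and thyroid hormone biology. A gene had a site when a member lay in it or within 20 kb, and 7.17% of the 22238 annotated protein-coding genes did. Of the 273 distinct list genes with coordinates, 36 had one (13.2%). Gene lengths were not matched, and long neuronal genes offer more room, so this share is a description. Of the brain T3 target genes 4 of 29 had a member, and 9 had a site shared with the pituitary. The 4 were *Klf9*, a zinc finger factor induced by thyroid hormone (45 over 11 reads at its start), *Kcnj10*, an inwardly rectifying potassium channel of glia (43 over 6 in an intron), *Cirbp*, a cold-inducible RNA-binding protein (28 over 6 at the start of the neighbouring *Efna2*), and *Nefh*, the heavy neurofilament chain (20 over 4 at its start). None of 9 deiodinase, transporter and other supply genes had one. The cortex site near *Ky* (65 over 3 reads) overlapped a pituitary peak of 10 over 0 reads. The authors describe *Ky* as a locus with a peak in cortex and none in pituitary, which differs from the peak lists read here. The cortex site at the start of *Dot1l* (167 over 9) overlapped a pituitary peak of 186 over 3, and 1 cortex-only *Dot1l* site of 10 reads lies below the threshold. Neither gene therefore supplies a member.

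Receptors and coregulators had 5 of 19 genes with a member. *Thra*, encoding the other thyroid hormone receptor, had a site of 18 over 2 reads 1602 bp from the nearest annotated start. The corepressor gene *Nrip1* held 33 over 10 reads, the coactivator gene *Ncoa2* 26 over 3, and the scaffold gene *Sin3a* 29 over 6 at their starts, and *Crebbp*, a histone acetyltransferase, had 22 over 5 reads at the neighbouring *Trap1* start. Of 37 other nuclear receptors 4 had a member, which were *Nr2c2* (45 over 11), *Esrra* (33 over 9 and 24 over 1), *Nr2f1* (21 over 0) and *Nr3c1*, the glucocorticoid receptor (21 over 3). The first of the 2 *Esrra* sites lay at the start of the neighbouring *Trmt112*. Clock genes had 2 of 16, *Clock* (29 over 7) and the output factor *Tef* (51 over 14, with a DR4 at 10 of 12 bases), while 10 of the 16 had shared sites.

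Lists of brain cell types gave small counts, to be read beside the 7.17% of all annotated protein-coding genes with a member. Glutamatergic neuron markers had 3 of 16 genes with a member, among them *Neurod2*, a bHLH factor of cortical projection neurons, with 38 over 3 reads 15362 bp away and 19 over 1 at its start, and *Emx1*, a homeobox gene of the dorsal forebrain (27 over 7). *Camk2a*, a kinase of synaptic plasticity, had 20 over 4 in an intron. GABAergic neuron markers had 1 of 13, *Pvalb*, whose site lay in an intron of the neighbouring *Ift27*. Astrocyte markers had 3 of 12, *Slc1a2*, *Aldh1l1* (20 over 1 in an intron) and *Gfap* (18 over 0, in an intron of *Eftud2*, with a DR4 at 10 of 12 bases). No oligodendrocyte lineage marker (0 of 11 with coordinates) and no pituitary marker (0 of 18) had one, and 9 of the pituitary markers had a pituitary site. Lists this short cannot set such counts apart from the share of all genes. The rule also removes cortex peaks that overlap a pituitary peak. Microglia and vessel markers had 1 of 10, *Pecam1*.

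Neuronal function genes were counted in the same way, beside the 7.17% of all annotated protein-coding genes with a member. Potassium channel genes had 5 of 21 (23.8%), among them *Kcnj10*, *Kcnd3*, *Kcnq3* and *Kcnn2*, with 19 to 43 HAB;BirA reads. The *Kcnd3* site lay at the start of the neighbouring *Ddx20*. Synaptic vesicle and scaffold genes had 4 of 25 (16%). They were *Syt1*, the calcium sensor of vesicle release (36 over 5 at its start), *Syn2* (24 over 4), *Nrxn2* (26 over 5 and 21 over 3) and *Bsn* (18 over 2, 10686 bp from its start). The GABA-B receptor gene *Gabbr2* was the 1 of 14 GABA receptor genes (7.14%), with 5 members of 18 to 37 reads in or near it. *Grik3*, a kainate receptor subunit (26 over 4 at its start), was the 1 of 21 glutamate receptor genes (4.76%). Immediate early genes had 3 of 17 (17.6%), *Arc* (22 over 5), *Egr1* (21 over 3) and *Fosb* (18 over 1). The *Egr1* and *Fosb* sites lay 5811 and 17057 bp from the starts. These shares were not tested.

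Pituitary RNA of genes near these sites was read next. None of its values entered the rule, but the rule used pituitary peaks, so this readout is not independent of it. It also comes from another tissue than the sites. RNA-seq compared hypothyroid mice, given 0.05% methimazole (MMI) and 1% KClO4, with hyperthyroid mice, given the same plus 0.5 µg/ml T3 in the final week, in adult male wild-type (WT) and *Thrb*-KO mice on C57BL/6J. A library was a pool of 3 mice, with 4 libraries in each WT and 5 in each *Thrb*-KO group. Recovered reads were 21453548 to 55273749 per library. The hormone transcripts *Gh* and *Prl* of the pituitary were abundant, at means of 55828 and 7502 CPM (read counts scaled to a common library total) in hypothyroid WT. *Thrb* itself was at 271 ± 20.1 (SD, n = 5) CPM in hypothyroid and 260 ± 32.0 (n = 5) in hyperthyroid *Thrb*-KO, against 257 ± 27.3 (n = 4) and 104 ± 22.8 (n = 4) in WT. The table counts whole transcripts and does not resolve the mutated part, so this transcript does not check the genotype. Genes were tested with limma on log2(CPM + 1) over 13145 genes, with a call made where the adjusted p (Benjamini-Hochberg) was under 0.05 and the change at least 1.5-fold.

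Genes with a promoter member were mostly expressed in the pituitary as well. Of 536 genes with a member at a protein-coding start, 519 had over 1 CPM in all 18 libraries (96.8%, 94.98 to 98.0), against 59.5% of all genes in the table. The share was 90.5% for weak cortex-only, 97.0% for shared and 94.8% for strong pituitary-only sites at starts.

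Genes near the members responded to T3 about as often as all genes. Of 1298 tested genes with a member within 20 kb, 53 were higher and 66 lower after T3 in WT (119, 9.17%). Over all tested genes 3.87% were called higher, 5.59% lower and 9.46% in either direction, so the members' share lay near the background. With other scalings the split turned, to 67 higher and 57 lower with TMM factors, 77 and 64 by edgeR and 79 and 64 by DESeq2 on the recovered reads. The higher share of called genes near members thus went from 44.5% to 54.0%, 54.6% and 55.2%. Over all genes it moved the same way, from 40.9% to 48.6%, 51.5% and 52.5%. In *Thrb*-KO 5 were higher and 4 lower (9, 0.693%), against 0.411% higher, 0.601% lower and 1.01% in either direction over all genes. Same-numbered libraries deviated together, and the libraries were also analysed in 2 sets by number. Within libraries 1 and 2 alone 121 genes were called in WT and 14 in *Thrb*-KO, and within libraries 3 to 5 alone 143 and 13. The shares lay near those of all tested genes, at 9.32% against 9.54% and 11.02% against 11.5% in WT and at 1.08% against 1.51% and 1.00% against 1.23% in *Thrb*-KO.

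The genes were also counted apart by whether a pituitary site lay near them. A pituitary site here and below is a peak of untreated mice. The RNA came from hypothyroid and hyperthyroid mice, whose pituitary peaks were not read, so a site bound only under treatment would be missed. Without a pituitary site within 20 kb, 14 of 715 genes were higher and 37 lower in WT (7.13%), beside 7.75% of all tested genes without a pituitary site. With one, 39 of 583 were higher and 29 lower (11.7%), beside 12.1% of all tested genes with a pituitary site. At the 531 genes with a member at the start 14 were higher and 19 lower (6.21%). For reference, genes near shared sites had 100 higher and 30 lower of 1183, and genes near strong pituitary-only sites 272 and 122 of 2462. The sets of genes overlap, and the differences between them were not tested.

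The largest fall with T3 among genes near a member was that of *Gpr123*, an adhesion G protein-coupled receptor, whose start held 19 over 4 reads. Its 4 hypothyroid WT libraries had 58.9, 48.8, 65.9 and 67.4 CPM and the 4 hyperthyroid ones 9.13, 8.55, 8.56 and 9.24. The 5 hypothyroid *Thrb*-KO libraries had 31.7, 29.5, 30.7, 29.0 and 31.0 CPM and the hyperthyroid ones 24.1, 28.4, 21.3, 20.7 and 25.9. The WT groups lay far apart, and all *Thrb*-KO libraries lay between them. Over all tested genes the WT groups did not overlap in 5.66% with higher and 11.7% with lower values after T3, and the *Thrb*-KO groups in 2.05% and 3.53%. The change was -2.62 ± 0.11 (SE) in WT (limma, adjusted p = 8.02e-12) and -0.33 ± 0.09 in *Thrb*-KO (adjusted p = 0.107) on the log2(CPM + 1) scale, which understates changes of low genes.

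*Il34*, a ligand of the CSF1 receptor, had its nearest member at the start of the neighbouring *Mtss1l* (34 over 6 reads). It had 11.4, 10.8, 16.9 and 17.2 CPM in hypothyroid and 1.62, 1.54, 2.31 and 1.26 in hyperthyroid WT libraries. *Thrb*-KO libraries had 2.62 to 3.93 CPM in the hypothyroid and 1.35 to 1.68 in the hyperthyroid group. Its WT and its *Thrb*-KO groups did not overlap, with changes of -2.48 ± 0.15 and -0.71 ± 0.13 (limma, adjusted p = 1.24e-09 and 0.00497). *Syt1* had 450, 468, 525 and 530 CPM in hypothyroid and 173, 189, 118 and 155 in hyperthyroid WT libraries. In *Thrb*-KO it had 298 to 320 and 228 to 242 CPM, also without overlap, and its change of -1.65 ± 0.11 in WT compared with -0.40 ± 0.10 in *Thrb*-KO (limma, adjusted p = 2.93e-09 and 0.0363, the latter under 1.5-fold). Neither gene had a pituitary site of untreated mice within 20 kb.

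The 10 largest falls also held those of *Fxyd5*, *Tagln3*, *Loxhd1*, *Hspa1a*, *Hspa1b* and *Eno3*. *Fxyd5*, a regulator of the sodium pump, fell by 2.37 on the log2 scale and *Tagln3*, an actin-binding protein of neurons, by 2.04. In *Thrb*-KO the change of *Tagln3* was -0.79 (limma, adjusted p = 0.139, and 0.00103 with the replicate block). *Loxhd1*, known from hair cells, fell by 1.99 and the muscle enolase *Eno3* by 1.65. The members counted for *Fxyd5* and *Eno3* lay at the starts of the neighbouring *Lgi4* and *Pfn1*. The heat shock genes *Hspa1a* and *Hspa1b* fell by 1.93 and 1.88, but they are near-identical copies whose reads cannot be assigned with certainty, and hypothyroid WT library 2 stood at 98.7 and 77.1 CPM while the other hypothyroid WT libraries had at most 25.2 and 19.6. Without that library the change of *Hspa1b* was -1.22 (limma, adjusted p = 0.0531), and without hyperthyroid WT library 4 it was -1.72 (adjusted p = 0.0528).

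The largest rise was that of *Olfml2b*, an extracellular matrix protein, whose nearest member, 50238 bp from its start, is 1 of the 6 with an 11-base DR4 match shown above. It had 3.08, 2.13, 2.07 and 2.18 CPM in hypothyroid and 14.8, 12.5, 13.3 and 16.3 in hyperthyroid WT libraries. In *Thrb*-KO the libraries had 1.13, 1.80, 1.63, 1.15 and 1.31 CPM and 4.84, 4.23, 4.17, 3.97 and 4.89 CPM. Both genotypes showed separate groups, with changes of 2.18 ± 0.12 and 1.18 ± 0.11 (limma, adjusted p = 3.22e-10 and 1.72e-06). A pituitary site also lay within 20 kb of this gene.

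*Ttll11*, a tubulin polyglutamylase with 2 members in it, rose from 5.34, 3.99, 5.72 and 5.40 CPM to 17.3, 15.1, 17.2 and 22.9 in WT (1.64 ± 0.13, limma, adjusted p = 3.53e-08). Its *Thrb*-KO groups overlapped, with 5.17 to 6.84 and 6.62 to 9.22 CPM. The 10 largest rises also held those of *Trib1*, a pseudokinase (1.35), *Lrp3* (1.27), *Gabbr2* (1.18), the inhibitory HLH factor *Id2* (1.07), *Camk2a* (1.04), the receptor *Erbb3* (1.01) and the calcium channel *Cacna1a* (1.00), all on the log2 scale in WT. The WT groups of these 7 genes did not overlap, which 81.5% of all genes called higher share. The member counted for *Erbb3* lay at the start of the neighbouring *Pa2g4*. A pituitary site lay within 20 kb of 7 of the 9 named genes with the largest rises, all but *Lrp3* and *Camk2a*, and of 1 of the 9 named with the largest falls, *Eno3*.

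Of the 36 list genes with a member 32 were tested, and 5 were higher and 2 lower in WT. Of all 206 tested list genes, with or without a member, 24 were higher and 24 lower (23.3%), above the 9.46% of all tested genes. *Klf9* rose from 63.1, 72.5, 60.5 and 66.7 CPM to 133, 143, 90.3 and 126 (0.88 ± 0.13, limma, adjusted p = 9.95e-05), and in *Thrb*-KO from 64.8 to 99.9 to a range of 122 to 145 (0.67 ± 0.12, adjusted p = 0.00338). The *Thrb*-KO change of *Klf9* was 0.57 without hypothyroid *Thrb*-KO library 5, just under the 1.5-fold limit. Within 20 kb of *Klf9* also lay 5 pituitary sites, the nearest 3850 bp from the member, and 1 cortex site shared with the pituitary. *Kcnj10* rose by 0.66 ± 0.11 and *Grik3* by 0.79 ± 0.18, and *Nefh* fell by 0.76 ± 0.12 on the log2 scale (limma, adjusted p = 0.000181, 0.00319 and 8.63e-05). Without hyperthyroid WT library 2 the change of *Kcnj10* was 0.58, under the 1.5-fold limit. A pituitary site lay within 20 kb of *Grik3* but not of *Kcnj10* or *Nefh*. *Camk2a*, *Gabbr2* and *Syt1* were called as given above. *Slc1a2*, whose start held 59 HAB;BirA reads, had 27.6 to 45.3 CPM in hypothyroid and 30.6 to 55.3 in hyperthyroid WT, with a change of 0.21 ± 0.20 (limma, adjusted p = 0.583). *Thra* was lower by 0.44 ± 0.10, below the 1.5-fold limit (limma, adjusted p = 0.00305), and 5 pituitary sites lay within 20 kb of it. *Neurod2* and *Emx1* were below 1 CPM in every pituitary library.

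**Figure D5:**
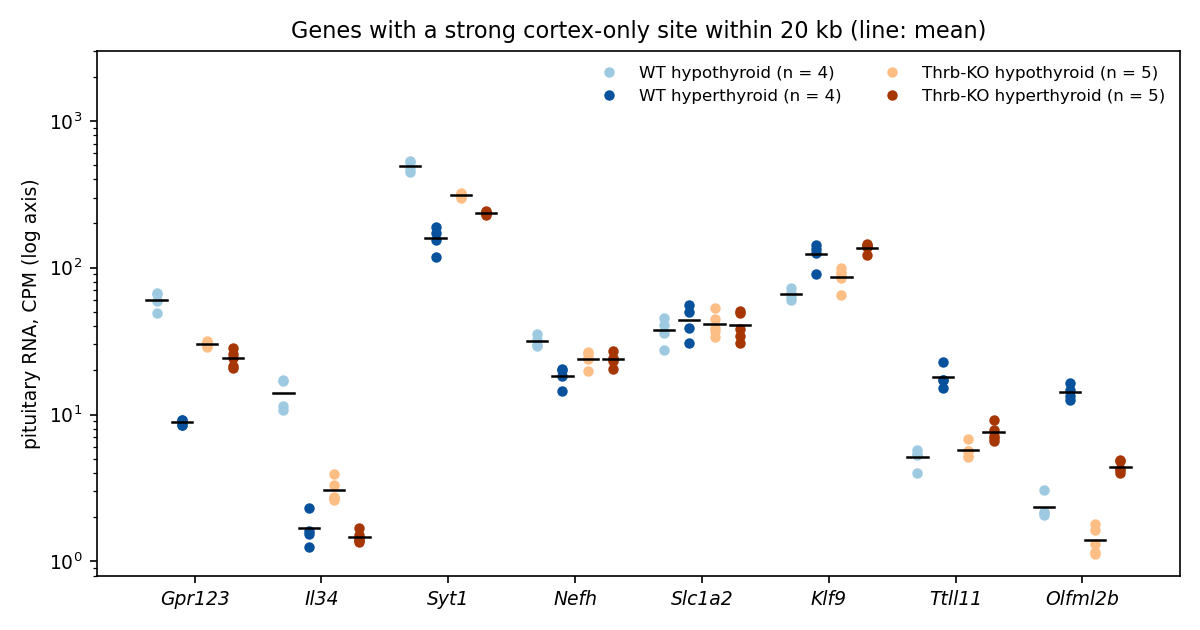
Pituitary RNA (CPM, log axis) of 8 genes with a strong cortex-only site within 20 kb, 1 point per library and a line for the mean, in 4 groups. *Gpr123*, *Il34*, *Syt1* and *Nefh* are lower and *Klf9*, *Ttll11* and *Olfml2b* higher in all hyperthyroid than in all hypothyroid WT libraries, and the groups of *Slc1a2* overlap.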

How the data were processed

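ChAP-seq reads were mapped to mm9 with Bowtie2 per the labels. The authors merged the replicates and called peaks with SICER 1.1 (50-bp windows), HAB;BirA against BirA control. The deposited lists give read counts without normalization, a p-value, a false discovery rate (FDR) and a fold scaled by the authors. The list of T3-regulated ATAC regions holds an adjusted p-value that the authors obtained with edgeR. For RNA-seq the authors aligned reads with BBMap against the RefSeq transcript set (mm9), and the table they deposited gives unfiltered CPM of each transcript. Histone ChIP-seq and the ChAP-seq of treated pituitaries were not analysed here.

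Members and gene lists were chosen with earlier results of these data known. Overlap meant at least 1 shared base. Sequence was read from the mm9 genome and starts from the GENCODE annotation of that build. Shares carry 95% Wilson intervals and were compared by Fisher's exact test (scipy 1.17.1), Benjamini-Hochberg adjusted. Intervals cover counting error only, and sites of merged libraries are not replicates.

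Each gene was represented by its transcript with the highest mean CPM. Whole reads were recovered from the steps between CPM values, with every value within 0.05 of a whole read in 14 libraries and all but 1 (99.997% whole) in the other 4. Genes above 1 CPM in all 18 libraries entered limma 3.58.1 with a trend on log2(CPM + 1), a single model of the 4 groups, in place of a count test laid down for raw counts. Nothing in the labels ties a library to separate cages or days, so p-values measure the spread between pools. Same-numbered libraries of a genotype deviated together (correlations 0.255 to 0.815 in WT and 0.386 to 0.668 in *Thrb*-KO), so the numbers may pair them. The main model, with its genotype by treatment term, leaves this pairing out of its errors and p-values. The replicate block named next takes it in, with each number given the same term in both genotypes. Alternatives were edgeR 4.0.16 and DESeq2 1.42.0 on the recovered reads, TMM factors, other filters and pseudocounts, a replicate block and each library left out. The tests were checked on simulated data. Named were the 10 sites with most reads, the 10 with the largest fold, sites with a DR4 at 11 or 12 bases, list genes with a site, the *Ky* and *Dot1l* loci, and the 10 largest called RNA changes in each direction. Some sites and genes that this rule takes in are not reported here.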

Additional observations from a re-analysis of the deposited data

Results flagged for a closer look

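The T3 response of 12 named genes near a strong cortex-only site differed between genotypes, by the genotype by treatment term of the limma model (Benjamini-Hochberg adjusted p under 0.05). The log2 change in WT minus that in *Thrb*-KO was -2.29 for *Gpr123* (adjusted p = 1.00e-08), -2.08 for *Eno3*, -1.77 for *Il34*, -1.74 for *Fxyd5*, -1.70 for *Loxhd1*, -1.25 for *Syt1* and -0.76 for *Nefh*. Among the genes that rose in WT it was 1.29 for *Ttll11*, 1.18 for *Id2*, 1.00 for *Olfml2b*, 0.81 for *Lrp3* (adjusted p = 0.0131, the highest of the 12) and 0.79 for *Cacna1a*. All but *Nefh* were named for a large change in WT, which favours a difference from *Thrb*-KO, so their number is a description. The term passed in 5.46% of all tested genes, in 4.47% of the 1298 with a member within 20 kb and in 47.7% of all genes called in WT. For *Eno3* the 5 hypothyroid *Thrb*-KO libraries had 30.9 to 45.0 CPM and the 5 hyperthyroid ones 38.9 to 62.9, against 43.2 to 69.6 and 14.9 to 20.7 CPM in WT. For *Id2* the *Thrb*-KO groups overlapped, with 6.95 to 8.91 and 5.20 to 8.70 CPM.

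In 7 of 184 sets of libraries 1 library lay far from the rest of its group by Dixon's criterion, which chance alone meets in about 1 of 20 sets. *Hspa1a* stood at 98.7 CPM in 1 hypothyroid WT library and at 18.7 CPM in 1 hyperthyroid *Thrb*-KO library, and *Hspa1b* at 13.6 CPM in the same *Thrb*-KO library. *Trib1* stood at 26.7 CPM in 1 hyperthyroid WT library whose group otherwise had 41.3 to 42.8. *Olfml2b* stood at 3.08 and *Gfap* at 5.03 CPM in 1 hypothyroid WT library each, and *Cirbp* at 60.98 CPM in 1 hyperthyroid *Thrb*-KO library.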

How the results depend on the processing

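The number of members was 1594 at 15 reads or more, 439 at 25 or more and 528 at an FDR of at most 1e-10. The share at starts was 61.6% within 2.5 kb, 53.1% for protein-coding starts and 60.1% at 25 reads or more, and CpG island sequence 55.8% at 25 reads or more. At that threshold the differences from shared sites were -2.81 and -2.57 points (adjusted p = 0.359 and 0.376), with fewer sites tested. The DR4 share was 0.58% with at most 1 mismatch, 44.7% with 3, 4.70% in the central 300 bp, 11.7% over and 6.61% within 1 kb of a start, and 11.4% at 25 reads or more. Its difference from weak cortex-only sites was -0.35, 0.20 and 1.80 points with at most 1 mismatch, in the central 300 bp and without the 59 sites of 10 or more control reads (adjusted p = 0.386, 0.855 and 0.0558), and the cause was not tested. The last setting and the restriction to genes without a pituitary site were chosen after seeing the data.

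Genes near members called in WT numbered 249 without the fold limit (19.2%, beside 19.3% of all tested genes). They numbered 33 with the site within 1 kb of the start (6.21%, beside 9.46% of all tested genes). Without a pituitary site they numbered 51 (7.13%, beside 7.75% of all such genes). In *Thrb*-KO these counts were 16 (1.23%, beside 1.79%), 3 (0.565%, beside 1.01%) and 4 (0.559%, beside 0.740%). In replicates 1 and 2 alone 14 were called in *Thrb*-KO (1.08%, beside 1.51%). Leaving out each library in turn gave 114 to 127 in WT and 6 to 9 in *Thrb*-KO. With the replicate block 119 were called in WT and 10 in *Thrb*-KO, and among the named genes the block changed only the call of *Tagln3* in *Thrb*-KO. Of the called changes in WT, the higher share was 44.5% near members and 40.9% over all genes, and 54.6% and 51.5% by edgeR. For the named genes 2546 values under alternatives kept their call, 22 lost it and 8 gained it, 14 of these for *Trib1* in *Thrb*-KO (reported adjusted p = 0.0390). No library could be left out of the merged peak lists, so the site shares have no replicate check.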
